A study of Rattus norvegicus with 21 samples.

Results

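The ADAM, ADAMTS and ADAMTS-like genes were the 45 genes whose symbol is Adam, Adamts or Adamtsl followed by a number, of 9998 genes in the table analysed here. They comprised 21 ADAM, 19 ADAMTS and 5 ADAMTS-like genes. Members were taken by symbol, but the family was chosen with earlier results of these data known. The cells were mesenchymal stem cells of rat bone marrow, which can form bone, fat and cartilage, and total RNA was sequenced from 7 groups of 3 libraries. The labels give all 21 libraries the genotype WT. In 6 groups the treatment is SFSN (self-feedback synaptic networks, by the series title), and each is tied to a fate: SFSN-EC to endothelial cells, SFSN-Ot to osteoblasts, SFSN-TC to tendon cells, SFSN-FB to fibroblasts, SFSN-Neu to neuron-like cells and SFSN-Adipo to adipocytes. Control carries no treatment. The labels do not say what the SFSN treatment consists of, the age of the animals, or whether replicates came from separate cultures or rats, so every p-value refers only to the spread among these libraries, which may be technical.

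ADAM proteins are membrane-anchored proteins with a metalloprotease and a disintegrin domain, and their protease members cut other membrane proteins at the cell surface, a step called shedding that releases growth factors, cytokines and Notch ligand fragments. ADAMTS proteins are secreted relatives that carry thrombospondin repeats and cut matrix proteins such as aggrecan, versican, procollagens and fibrillins. ADAMTS-like proteins share the thrombospondin repeats but have no protease domain, and several bind fibrillin microfibrils. In cartilage and marrow stroma the family is best known for aggrecan breakdown, procollagen processing and the release of epidermal growth factor receptor ligands.

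Genes were tested on the estimated counts with edgeR's quasi-likelihood test in 1 model over the 21 libraries, and a gene was called where its Benjamini-Hochberg adjusted p over the 6659 genes tested was under 0.05. Values per library are CPM, counts scaled to the library total after its adjustment by edgeR's TMM factor, not to the total alone. Overlap of groups in CPM refers to these TMM-scaled values. Levels of different genes are compared as TPM, which is per transcript length. Fold changes are log2 ± SE, SFSN over Control unless said otherwise, with 3 libraries a group. Library totals over the table's genes ran from 8113600 to 8934239 counts. SFSN-EC 1 and SFSN-Neu 2 differed most from their own replicates, their chi-square over its degrees of freedom being 41.4 to 42.6 and 21.6 to 24.0. Smaller values were found for SFSN-FB 1 (11.6 and 14.2), SFSN-Ot 3 (9.01 and 13.5) and Control 1 (8.47 and 9.06). Control 2 and Control 3 differed by 2.38, and Control 1 enters every comparison with Control. With SFSN-EC 1 and SFSN-Neu 2 left out, the calls against Control were lost for Adam33 and Adamts6 in SFSN-EC (adjusted p = 0.122 and 0.0665, edgeR), for Adam1a, Adamts2 and Adamts7 in SFSN-Neu (0.0748, 0.102 and 0.066) and for Adam1a with the groups averaged (0.0585). All 8 markers of mesenchymal stem cells were detected, with a summed level of 1598 to 2381 TPM in the SFSN libraries and 2753 to 3101 TPM in Control, without overlap. With the groups averaged 2 of the 8 markers rose and 4 fell. Of all genes tested 23.5% rose and 22.4% fell, so the rises were near that share. Among the markers that fell was Cxcl12, the stromal chemokine of marrow, at 772 CPM over the SFSN libraries and 1404 CPM in Control. In bulk RNA, fewer cells of a type and less RNA per cell cannot be told apart.

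Of the 45 members, 32 had enough counts to be tested: 13 of 21 ADAM, 15 of 19 ADAMTS and 4 of 5 ADAMTS-like genes. The other 13 were Adam2, Adam3a, Adam5, Adam11, Adam18, Adam28, Adam30, Adam32, Adamts13, Adamts16, Adamts18, Adamts20 and Adamtsl2. Most of the untested ADAM genes belong to the germ line set, whose proteins act on sperm in rodents, and Adam2, Adam5 and Adam18 had 1 count each over all 21 libraries. Adamts16, a secreted protease, had 37 counts over the 18 SFSN libraries and 0 over the 3 Control libraries, which is at least 2.14-fold higher per library total when 3 counts over the Control group are taken as its floor. Adamts13, which cuts von Willebrand factor in blood, had 11 counts in the SFSN libraries and 1 in Control.

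Promoter windows from RefSeq (build GRCr8, 250 bases before to 50 after the annotated start, 5′ to 3′ on the gene's strand) were at hand for 30 of the 45 members. None was at hand for Adamts15, Adamts19 and Adam23, which rose in every SFSN group, or for Adam33, Adamts5 and Adamts8, among others. The windows of 4 members are shown. Adamts9 (chr4:127019827-127020126, minus strand) rose in every SFSN group. Adamts1 (chr11:38427335-38427634, minus strand) and Adam8 (chr1:204218273-204218572, minus strand) split the SFSN groups. Adam19 (chr10:30992511-30992810, plus strand) fell in every SFSN group. Capitals mark a match to TGANTCA, the AP-1 motif, in Adam19, and to TATAAA, the TATA box, in Adamts1.
Adamts9: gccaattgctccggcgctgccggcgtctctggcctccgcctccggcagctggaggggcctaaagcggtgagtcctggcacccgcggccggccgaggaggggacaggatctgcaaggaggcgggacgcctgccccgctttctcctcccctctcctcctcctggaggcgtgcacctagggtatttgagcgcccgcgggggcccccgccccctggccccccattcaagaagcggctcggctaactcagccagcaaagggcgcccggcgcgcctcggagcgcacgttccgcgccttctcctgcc
Adamts1: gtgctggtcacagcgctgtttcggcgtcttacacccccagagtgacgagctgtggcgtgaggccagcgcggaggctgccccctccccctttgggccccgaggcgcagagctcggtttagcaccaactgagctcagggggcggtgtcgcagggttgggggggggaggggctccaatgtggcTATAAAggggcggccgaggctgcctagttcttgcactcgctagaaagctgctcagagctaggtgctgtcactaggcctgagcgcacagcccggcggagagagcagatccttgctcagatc
Adam8: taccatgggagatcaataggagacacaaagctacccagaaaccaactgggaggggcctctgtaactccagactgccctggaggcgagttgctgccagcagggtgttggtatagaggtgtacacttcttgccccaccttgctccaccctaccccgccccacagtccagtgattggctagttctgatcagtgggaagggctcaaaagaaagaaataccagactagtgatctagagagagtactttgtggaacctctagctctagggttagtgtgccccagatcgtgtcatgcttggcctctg
Adam19: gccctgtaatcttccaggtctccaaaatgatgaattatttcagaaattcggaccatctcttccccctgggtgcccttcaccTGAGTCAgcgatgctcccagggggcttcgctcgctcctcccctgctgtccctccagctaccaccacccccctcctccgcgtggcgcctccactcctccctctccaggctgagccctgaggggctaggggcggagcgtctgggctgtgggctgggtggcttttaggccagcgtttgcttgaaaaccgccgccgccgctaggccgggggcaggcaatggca

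The 4 windows differed in base composition. That of Adamts9 held 72.3% G and C with 30 CpG pairs, those of Adam19 and Adamts1 63.7% and 65.0% with 15 and 18 pairs, and that of Adam8 53.0% with 3 pairs. On both strands, TGANTCA was found in 1 of the 30 member windows, at -169 in Adam19, and in 7.33% of 33469 RefSeq promoters. TATAAA was found in 5 of 30 (Adam4l1, Adamts1, Adamts7, Adamts10 and Adamtsl2) and in 14.2% of all promoters. A form of the NF-kappaB motif (GGG, any 2 bases, then TTTCC) was found in 0 of 30 and in 1.53% of all. The TATA box and the NF-kappaB motif were chosen after values had been seen, no member window held more than 1 of the 3 motifs, and a match is a description, not a site.

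By level, 3 genes carried much of the family's RNA. Adam12, a shedding protease of mesenchymal cells and myoblasts also called meltrin alpha, averaged 214 TPM over the 21 libraries, or 23.8% of the summed TPM of all members. Adam19, meltrin beta, averaged 123 TPM and 13.7%, and Adamts1, an aggrecan- and versican-cutting protease, 87.3 TPM and 9.63%. The next were Adam23 at 48.6, Adam9 at 46.2, Adam17 at 45.1 and Adamtsl4 at 44.2 TPM. At the other end of the tested members, Adamts3 averaged 0.218 TPM and Adamts19 0.167 TPM. Summed over the 21 ADAM genes, the groups overlapped: the SFSN libraries ran from 391 to 645 TPM and Control from 514 to 623 TPM.

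**Figure D1:**
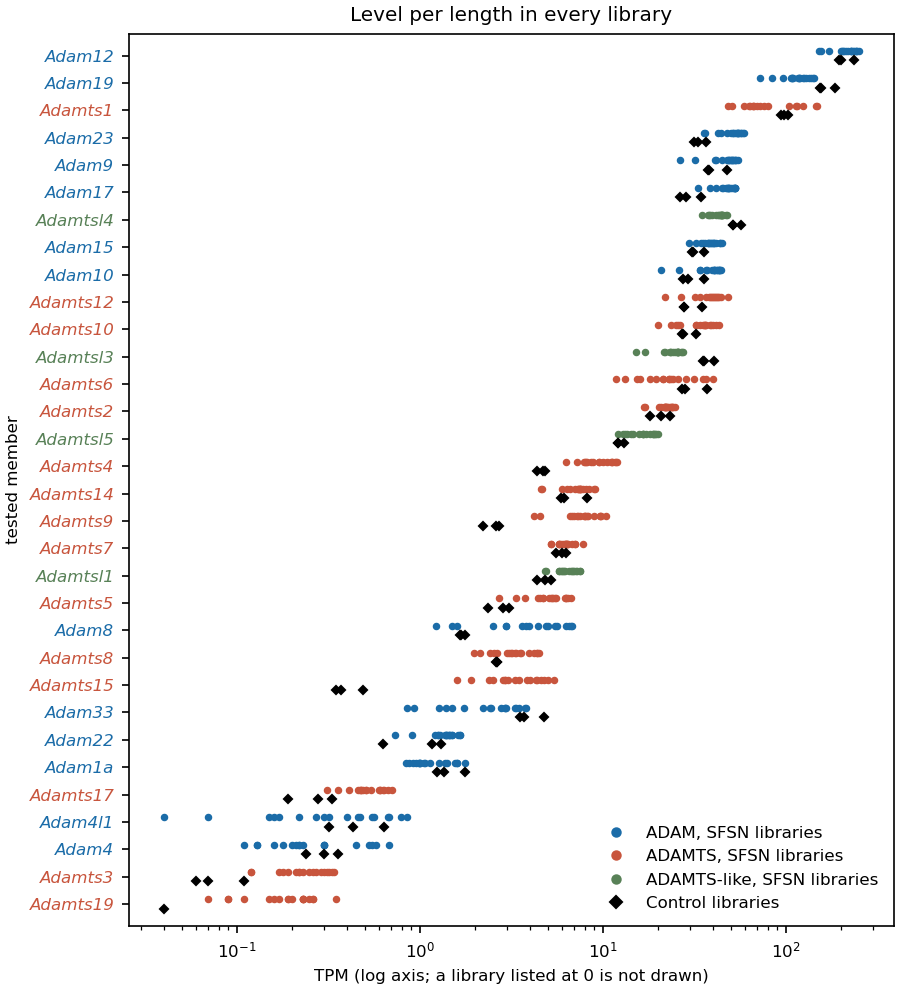
TPM (log axis) of each of the 32 tested members in each library, SFSN libraries as coloured circles (18 per gene, colour by subfamily) and Control libraries as black diamonds (3 per gene), genes ordered by mean TPM. Adam12, Adam19 and Adamts1 sit at the top with means of 214, 123 and 87.3 TPM, and the Control diamonds of Adamts15 and Adamts9 lie to the left of all their SFSN circles.

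Against Control, members of each subfamily moved both ways. With the 6 SFSN groups averaged, 12 of the 32 tested members rose and 7 fell, where 23.5% of all tested genes rose and 22.4% fell. By subfamily, 3 of 13 ADAM genes rose and 3 fell, 7 of 15 ADAMTS genes rose and 2 fell, and 2 of 4 ADAMTS-like genes rose and 2 fell. The count filter asked for at least 1.156 CPM of the unscaled library total in 3 libraries, and Adam4, Adamts3 and Adamts19 passed it with no Control library at that level. Adamts3 and Adamts19 therefore had to stand higher in SFSN, and both are among the 7 ADAMTS genes that rose. Over the other 29 members, 10 rose and 7 fell. The median log2 fold change over the tested members was 0.03 for ADAM, 0.18 for ADAMTS and -0.12 for ADAMTS-like genes, against 0.01 for all genes tested. The median size of the change, whatever its sign, was 0.45 for the members and 0.24 for all genes. The ADAMTS median and the median size for the members include Adamts3 and Adamts19. The difference between subfamilies was not tested.

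More members rose than fell in each SFSN group when all tested members were counted, but not in SFSN-Neu without Adamts3 and Adamts19. In SFSN-EC 10 rose and 7 fell (17.7% and 15.6% of all genes), in SFSN-Ot 12 and 3 (20.2% and 19.3%), and in SFSN-TC 9 and 5 (19.3% and 18.8%). In SFSN-FB 14 rose and 4 fell (21.5% and 21.2%), in SFSN-Neu 12 and 10 (20.1% and 17.9%), and in SFSN-Adipo 12 and 5 (19.7% and 16.8%). Each count of rises includes Adamts3 and Adamts19. Over the 29 members without these and Adam4, 8 rose and 7 fell in SFSN-EC, 10 and 3 in SFSN-Ot and 7 and 5 in SFSN-TC. Likewise 12 rose and 4 fell in SFSN-FB, 10 and 10 in SFSN-Neu and 10 and 5 in SFSN-Adipo. These comparisons share the 3 Control libraries.

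Across the 6 comparisons, 7 members rose in all 6 (Adam17, Adam23, Adamts3, Adamts4, Adamts9, Adamts15 and Adamts19), as did 8.50% of all genes. Without Adamts3 and Adamts19 there were 5. The 3 members that fell in all 6 were Adam19, Adamtsl3 and Adamtsl4, as did 8.97% of all genes. Another 3, Adam8, Adamts1 and Adamts8, rose in some groups and fell in others, as did 2.97% of all genes. A further 5 rose in some groups and fell in none (Adam15, Adamts5, Adamts17, Adamtsl1 and Adamtsl5), and 6 fell in some and rose in none (Adam1a, Adam12, Adam33, Adamts2, Adamts6 and Adamts7). The remaining 8 (Adam4, Adam4l1, Adam9, Adam10, Adam22, Adamts10, Adamts12 and Adamts14) were called in none, as were 36.5% of all genes. Leaving out 1 library moved the number that rose in all 6 to between 6 and 8. Under total-count scaling 11 members rose in all 6, and by limma on log2 TPM 1 fell in all 6. In 8 members, Adamts3 and Adamts19 among them, all 18 SFSN libraries lay above all 3 Control libraries, as in 9.81% of all genes, and in 4 they lay below, as in 11.2%.

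**Figure D2:**
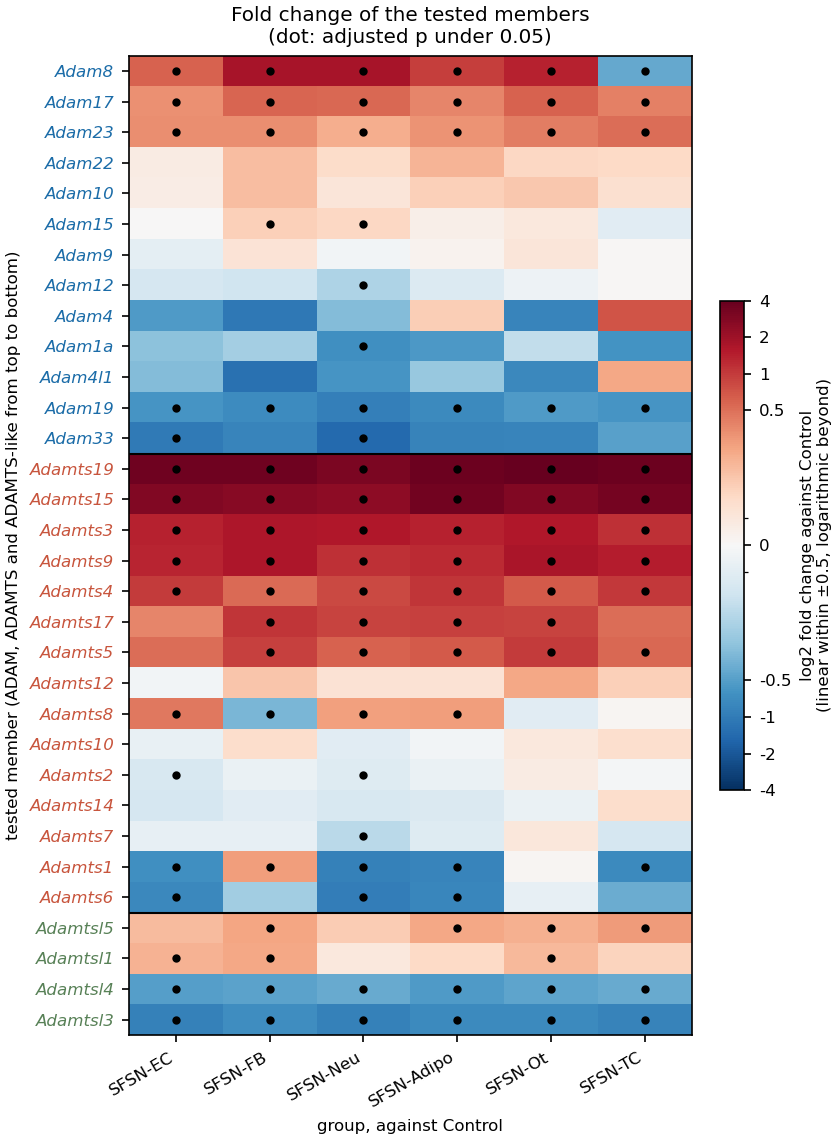
Colour scale of the log2 fold change of each tested member (rows, ADAM above ADAMTS above ADAMTS-like) in each SFSN group against Control (columns), linear within ±0.5 and logarithmic beyond, with a dot where the adjusted p was under 0.05. Adamts15 is red with a dot in all 6 columns, with a mean of 2.89, and the Adamts19 row is fitted over 2 Control counts in all. Adam8, Adamts1 and Adamts8 are the rows with black dots on both red and blue cells.

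The aggrecanases and their close relatives, called hyalectanases because they cut aggrecan and versican, held several of the members that rose in every group. Of 7 such genes (Adamts1, Adamts4, Adamts5, Adamts8, Adamts9, Adamts15 and Adamts20), 6 were tested, and with the SFSN groups averaged 4 rose and 1 fell, where 23.5% of all genes rose and 22.4% fell. Their summed level was 98.4 ± 23.3 TPM in SFSN-EC, 140 ± 8.98 TPM in SFSN-Ot, 101.5 ± 3.82 TPM in SFSN-TC, 167 ± 16.9 TPM in SFSN-FB, 84.3 ± 13.6 TPM in SFSN-Neu and 96.5 ± 5.27 TPM in SFSN-Adipo, against 112 ± 4.29 TPM in Control (SD, n = 3 each). Adamts1 made up most of that sum.

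Adamts15 (gene ID 300474), a versican- and aggrecan-cutting protease, had 16.7, 24.7 and 28.3 CPM in SFSN-EC, 24.3, 28.1 and 18.7 CPM in SFSN-Ot and 30.3, 32.8 and 31.5 CPM in SFSN-TC. It had 20.01, 22.1 and 21.3 CPM in SFSN-FB, 21.3, 13.4 and 21.4 CPM in SFSN-Neu and 34.0, 38.0 and 35.5 CPM in SFSN-Adipo, against 2.77, 3.15 and 4.16 CPM in Control. All 18 SFSN libraries were above Control, and SFSN-Neu 2 was the lowest of them. The log2 fold change was 2.89 ± 0.20 with the groups averaged (adjusted p = 1.73e-09, edgeR), from 2.47 ± 0.24 in SFSN-Neu to 3.41 ± 0.23 in SFSN-Adipo. The SFSN groups also differed among themselves (adjusted p = 0.00336, edgeR F test), and SFSN-Adipo stood above the other 5 SFSN groups by 0.62 ± 0.14 (adjusted p = 0.00555).

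Adamts9 (gene ID 312566), a protease of aggrecan and versican, had 55.2, 89.8 and 80.4 CPM in SFSN-EC, 103, 109 and 89.0 CPM in SFSN-Ot and 84.3, 83.7 and 82.5 CPM in SFSN-TC. It had 81.0, 101 and 103 CPM in SFSN-FB, 78.5, 50.3 and 72.6 CPM in SFSN-Neu and 69.0, 68.1 and 72.7 CPM in SFSN-Adipo, against 31.1, 32.4 and 26.6 CPM in Control. Every SFSN library was above every Control library, and SFSN-EC 1 and SFSN-Neu 2 were the lowest of their groups. The averaged log2 fold change was 1.43 ± 0.14 (adjusted p = 1.87e-07, edgeR), with SFSN-Ot highest at 1.74 ± 0.17 and SFSN-Neu lowest at 1.16 ± 0.17.

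Adamts4 (gene ID 66015), known as aggrecanase 1, had 36.9, 41.5 and 43.9 CPM in SFSN-EC, 33.0, 31.2 and 32.5 CPM in SFSN-Ot and 44.4, 36.6 and 41.9 CPM in SFSN-TC. It had 26.3, 33.7 and 28.3 CPM in SFSN-FB, 36.7, 35.1 and 36.8 CPM in SFSN-Neu and 40.9, 43.3 and 41.3 CPM in SFSN-Adipo, against 18.3, 20.9 and 21.6 CPM in Control. No SFSN library overlapped Control. The averaged log2 fold change was 0.85 ± 0.08 (adjusted p = 6.99e-08, edgeR), and SFSN-FB, the lowest group, stood below the other 5 SFSN groups by -0.38 ± 0.08 (adjusted p = 0.00105).

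Adamts5, known as aggrecanase 2, ranged from 10.0 to 20.8 CPM in the SFSN libraries and from 8.57 to 10.5 CPM in Control, so the groups overlapped by 1 library, SFSN-EC 1. It rose by 0.71 ± 0.16 with the groups averaged (adjusted p = 0.00131, edgeR) and in 5 of the 6 groups, with SFSN-EC at 0.51 ± 0.20 (adjusted p = 0.0556). The calls in SFSN-TC, SFSN-Neu and SFSN-Adipo were lost when Control 3 was left out, with adjusted p of 0.116, 0.0804 and 0.0551. They were also lost in SFSN-TC without Control 2 or SFSN-TC 2 (0.0528 and 0.211) and in SFSN-Neu without SFSN-Neu 1 or SFSN-Neu 3 (0.117 and 0.0558). Adamts20 was not tested, with 75 counts in all.

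**Figure D3:**
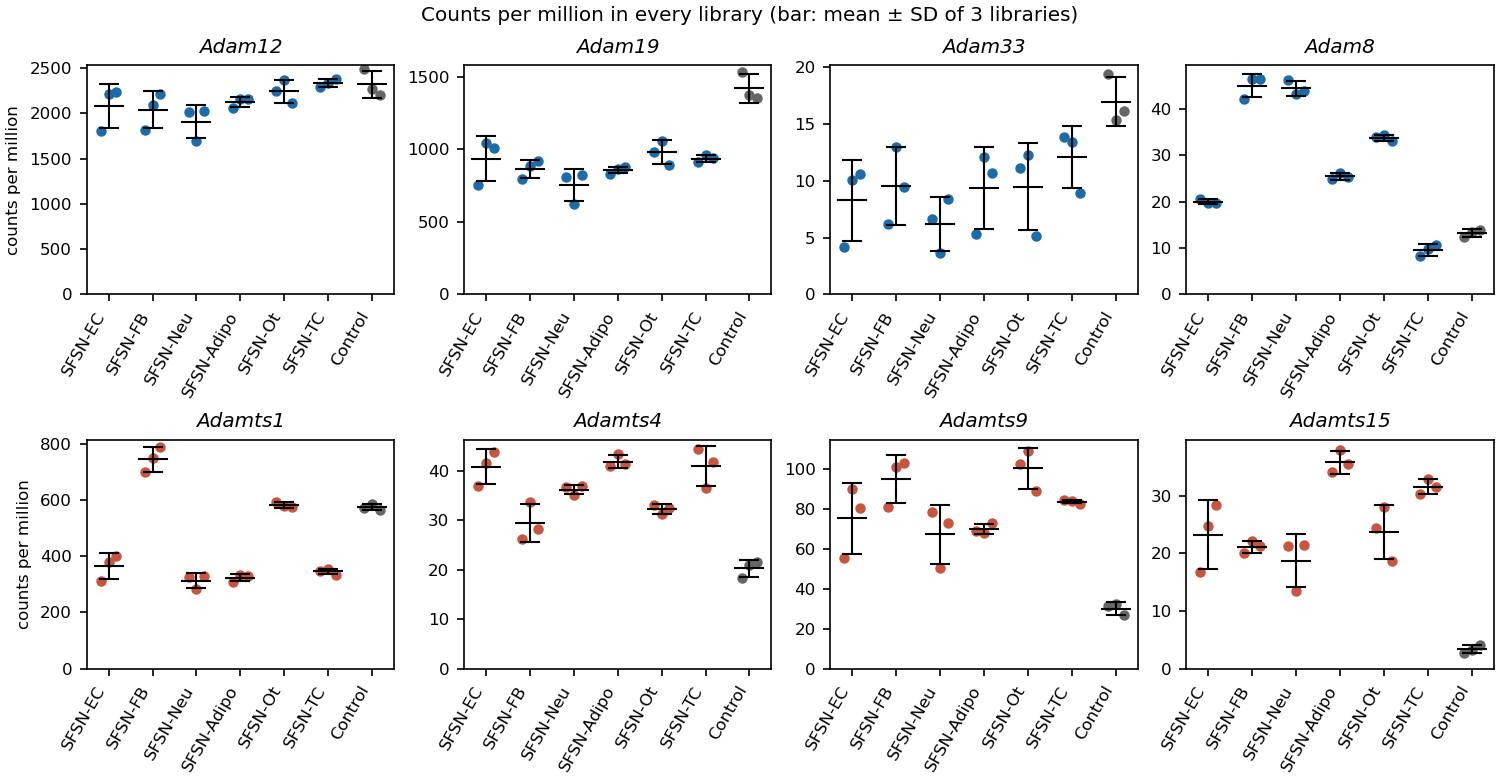
CPM of 8 members in each library (points, 3 per group) with the mean and SD of each group (black bars), the 6 SFSN groups on the left and Control in grey on the right, each panel with its own axis from 0. Adamts4, Adamts9 and Adamts15 lie above Control in all 18 SFSN libraries, Adam19 and Adam33 below it, and Adam8 and Adamts1 lie on both sides.

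Adamts1 (gene ID 79252) went the other way in most groups. It had 312, 381 and 399 CPM in SFSN-EC, 593, 579.6 and 573 CPM in SFSN-Ot and 348, 354 and 335 CPM in SFSN-TC. It had 698, 750.5 and 786 CPM in SFSN-FB, 325, 282 and 329.9 CPM in SFSN-Neu and 309, 333 and 329 CPM in SFSN-Adipo, against 573, 586 and 564 CPM in Control. SFSN-FB lay above Control without overlap, SFSN-Ot overlapped it, and the other 4 groups lay below it without overlap. Adamts1 rose by 0.38 ± 0.07 in SFSN-FB (adjusted p = 0.000506, edgeR) and fell in SFSN-EC, SFSN-TC, SFSN-Neu and SFSN-Adipo, with -0.88 ± 0.08 in SFSN-Neu (adjusted p = 4.07e-08). SFSN-Ot stood at 0.02 ± 0.07 (adjusted p = 0.868). The SFSN groups differed (adjusted p = 4.63e-10, F test).

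From high to low, the mean Adamts1 levels were 745 CPM in SFSN-FB, 582 in SFSN-Ot, 574 in Control, 364 CPM for SFSN-EC, 345 CPM for SFSN-TC, 324 CPM for SFSN-Adipo and 312 CPM for SFSN-Neu. The step between SFSN-Ot and SFSN-FB was past the threshold (-0.36, adjusted p = 0.00841, edgeR). The steps between neighbours among SFSN-EC, SFSN-TC, SFSN-Adipo and SFSN-Neu were not, with adjusted p from 0.661 to 0.754. SFSN-FB stood above the other 5 SFSN groups by 0.99 ± 0.05 (adjusted p = 4.05e-10) and SFSN-Ot by 0.56 ± 0.06 (adjusted p = 1.5e-06).

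Adamts8, a protease with anti-angiogenic thrombospondin repeats known as METH-2, split the groups in another order. It had 18.2, 19.7 and 19.1 CPM in SFSN-EC, 13.7, 11.4 and 12.9 CPM in SFSN-Ot and 13.9, 13.2 and 14.2 CPM in SFSN-TC. It had 10.6, 10.9 and 9.23 CPM in SFSN-FB, 16.4, 17.1 and 19.3 CPM in SFSN-Neu and 20.1, 17.4 and 15.5 CPM in SFSN-Adipo, against 13.1, 13.7 and 13.99 CPM in Control. SFSN-EC, SFSN-Neu and SFSN-Adipo lay above Control and SFSN-FB below it, without overlap. Adamts8 rose by 0.48 ± 0.10 in SFSN-EC, 0.37 ± 0.10 in SFSN-Neu and 0.38 ± 0.10 in SFSN-Adipo, and its log2 fold change was -0.41 ± 0.11 in SFSN-FB (adjusted p = 0.00425, edgeR). With total-count scaling the fall in SFSN-FB missed the threshold (adjusted p = 0.099) as it did by limma on log2 TPM (0.104 and 0.125).

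Both pairs of ADAMTS genes that lie next to each other in the RefSeq annotation, with no protein-coding gene between them, moved unequally. Adamts15 rose in all 6 groups by at least 2.47 while its neighbour Adamts8 ran from -0.41 to 0.48. Adamts1 fell in 4 groups while its neighbour Adamts5 rose in 3 of those 4 and stood at 0.51 in SFSN-EC. In SFSN-FB both Adamts1 and Adamts5 rose, by 0.38 ± 0.07 and 0.93 ± 0.20, while Adamts8 fell beside Adamts15.

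**Figure D4:**
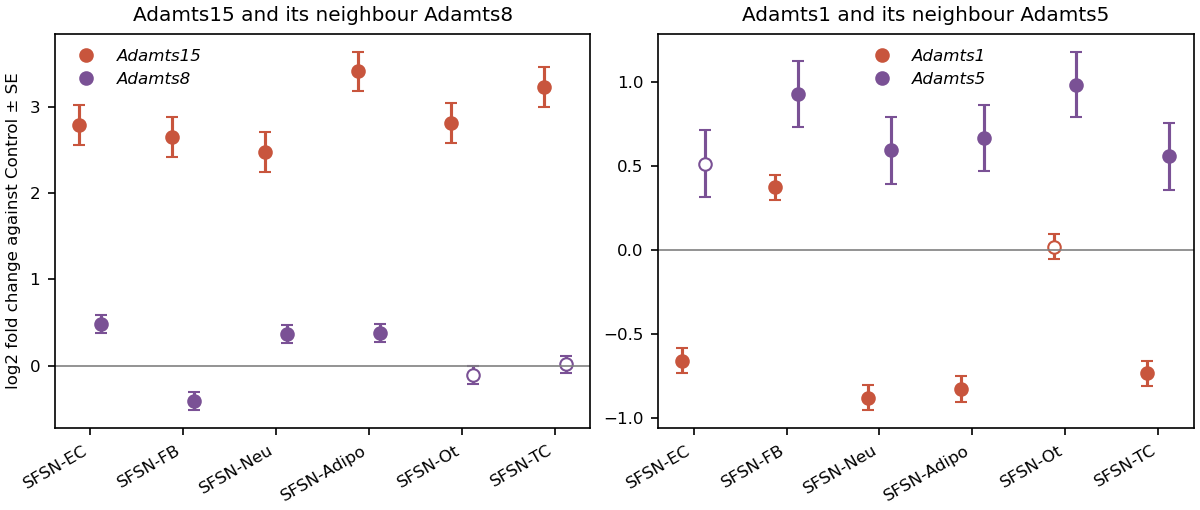
Log2 fold change against Control ± SE in each SFSN group for the neighbouring genes Adamts15 and Adamts8 (left) and Adamts1 and Adamts5 (right), filled points where the adjusted p was under 0.05. Adamts15 stays between 2.47 and 3.41 while Adamts8 stays between -0.41 and 0.48, and Adamts1 is above 0 with a filled point in SFSN-FB alone.

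The other ADAMTS proteases changed in a few members. Adamts19, a protease without a well-established substrate, had 187 counts over the 18 SFSN libraries and 2 over the 3 Control libraries, a ratio per library total of 16.2 (95% exact counting interval 4.42 to 135, which covers counting error only). It passed the count filter through the SFSN groups, where single libraries had 0.471 to 2.14 CPM, and Control libraries had 0 to 0.252 CPM. Adamts3, a procollagen N-propeptidase, had 0.9 to 2.67 CPM in the SFSN libraries and 0.504 to 0.882 CPM in Control, where single libraries had 4 to 7 counts, and it too passed the filter through the SFSN groups. Its call in SFSN-TC was lost without Control 1, Control 2, SFSN-TC 1 or SFSN-TC 3, with adjusted p from 0.0694 to 0.116 by edgeR. Adamts17, linked to fibrillin matrix, rose by 0.79 ± 0.19 (adjusted p = 0.00198, edgeR), with 2.57 to 5.58 CPM in the SFSN libraries and 1.64 to 2.64 CPM in Control.

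Of the other 2 procollagen N-propeptidases, Adamts14 was called in no group and Adamts2 was near Control, at -0.14 ± 0.04 in SFSN-EC (adjusted p = 0.0127, edgeR) and -0.12 ± 0.04 in SFSN-Neu (adjusted p = 0.0313). These Adamts2 calls were lost under many settings, in SFSN-EC without Control 1 or Control 2 (adjusted p = 0.061 and 0.0911) and in SFSN-Neu without any of 8 single libraries. Under total-count scaling both values turned to the other sign, 0.05 and 0.09. Adamts6, of the fibrillin group with Adamts10, stood at -0.56 ± 0.17 with the groups averaged (adjusted p = 0.0135), a call lost without Control 1 (0.1). It fell in SFSN-EC (-0.77 ± 0.24, lost without SFSN-EC 1 or Control 1, 0.0761 and 0.0704), SFSN-Neu (-0.95 ± 0.24) and SFSN-Adipo (-0.79 ± 0.24, lost without Control 1 or SFSN-Adipo 1, 0.0574 and 0.0736). The averaged, SFSN-EC and SFSN-Adipo calls of Adamts6 were also lost under total-count scaling (adjusted p from 0.0516 to 0.0832, edgeR). By limma on log2 TPM they were lost as well (0.0917 to 0.138). Its partner Adamts10 was called in none. Adamts7 and Adamts12 are known to cut cartilage oligomeric matrix protein. Adamts7 fell in SFSN-Neu by 0.24 ± 0.08 (adjusted p = 0.0298), a call that 6 single libraries ended when left out, and Adamts12 was called in none. The Adamts7 value in SFSN-Neu was -0.030 under total-count scaling (adjusted p = 0.784, edgeR) and -0.041 and -0.036 by limma on log2 TPM (0.807 and 0.813). Its call was also lost with no count filter (0.0594) and with only the 2 groups compared (0.0906).

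Among ADAM genes, Adam8 (gene ID 499285), a shedding protease of leukocytes and osteoclast precursors, split the SFSN groups. It had 20.7, 19.7 and 19.7 CPM in SFSN-EC, 33.9, 34.3 and 33.1 CPM in SFSN-Ot and 8.22, 9.79 and 10.7 CPM in SFSN-TC. It had 42.2, 46.5 and 46.4 CPM in SFSN-FB, 46.3, 43.2 and 43.8 CPM in SFSN-Neu and 24.9, 26.3 and 25.2 CPM in SFSN-Adipo, against 12.3, 13.4 and 13.99 CPM in Control. Of the 6 groups, 5 lay above Control and SFSN-TC below it, none overlapping Control. Adam8 rose by 1.77 ± 0.08 in SFSN-FB (adjusted p = 5.35e-12, edgeR) and 1.75 ± 0.08 in SFSN-Neu, and stood at -0.47 ± 0.09 in SFSN-TC (adjusted p = 0.000699). The SFSN-TC call was not made by limma on log2 TPM (0.121 and 0.193).

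In order of Adam8 level, SFSN-FB (45.0 CPM) and SFSN-Neu (44.4 CPM) did not differ beyond their spread (0.02, adjusted p = 0.901, edgeR). SFSN-Ot (33.7 CPM), SFSN-Adipo (25.5 CPM), SFSN-EC (20.02 CPM), Control (13.2 CPM) and SFSN-TC (9.58 CPM) followed, and each of these steps was past the threshold, with adjusted p from 1.46e-05 to 0.0131. Markers of macrophages and other leukocytes moved with it in part. Of 14 such markers tested, 8 rose and 0 fell in SFSN-EC, 9 and 2 in SFSN-Ot, 3 and 4 in SFSN-TC, 9 and 1 in SFSN-FB, 11 and 0 in SFSN-Neu and 11 and 0 in SFSN-Adipo. Between 17.7% and 21.5% of all genes rose and between 15.6% and 21.2% fell in these comparisons, and the rises in SFSN-TC were near the 19.3% of all genes there. Their summed level over 17 genes was 918 to 934 TPM in SFSN-EC, 798 to 821 in SFSN-Ot, 907 to 956 in SFSN-TC, 1002 to 1067 in SFSN-FB, 1294 to 1325 in SFSN-Neu and 1261 to 1345 in SFSN-Adipo, against 718 to 732 TPM in Control. Adgre1, the F4/80 antigen of macrophages, stood at 79.0 CPM over the SFSN libraries and 14.7 CPM in Control, and Cd163 had 1 count in all. The part of these cells in the Adam8 result was not tested.

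Adam17, the main sheddase of tumour necrosis factor and of epidermal growth factor receptor ligands, rose in all 6 groups. It had 189 to 256 CPM in the SFSN libraries and 148 to 179 CPM in Control, without overlap, and rose by 0.51 ± 0.07 on the log2 scale (adjusted p = 9.38e-06, edgeR). Adam10, the sheddase of Notch receptors, stood at 0.18 ± 0.13 (adjusted p = 0.267), with 107 to 196 CPM in the SFSN libraries and 134 to 169 CPM in Control. Adam9 and Adam15, further membrane proteases, stood at 0.03 ± 0.11 and 0.08 ± 0.05. Adam15 rose in SFSN-FB (0.22 ± 0.06, adjusted p = 0.00808) and in SFSN-Neu (0.18 ± 0.06, adjusted p = 0.0254), the last lost without Control 3, SFSN-Neu 1 or SFSN-Neu 3 (0.0526, 0.106 and 0.135).

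Adam19 (gene ID 303068), known for shedding neuregulin, had 757, 1042 and 1012 CPM in SFSN-EC, 985, 1062 and 896 CPM in SFSN-Ot and 912, 960.3 and 938 CPM in SFSN-TC. It had 794, 883 and 919 CPM in SFSN-FB, 812, 627 and 825 CPM in SFSN-Neu and 832, 864 and 877 CPM in SFSN-Adipo, against 1536, 1374 and 1354 CPM in Control. All 18 SFSN libraries were below Control. The averaged log2 fold change was -0.68 ± 0.08 (adjusted p = 1.4e-06, edgeR), from -0.54 ± 0.11 in SFSN-Ot to -0.91 ± 0.11 in SFSN-Neu. By limma on log2 TPM, Adam19 was not called in SFSN-Ot (0.0881 and 0.0875) or SFSN-TC (0.0962 and 0.0948).

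Adam12 (gene ID 679837), the most abundant member, had 1804, 2215 and 2233 CPM in SFSN-EC, 2251, 2368 and 2114 CPM in SFSN-Ot and 2290.0, 2334 and 2377 CPM in SFSN-TC. It had 1820.4, 2093 and 2212 CPM in SFSN-FB, 2010.1, 1694 and 2024 CPM in SFSN-Neu and 2056, 2155 and 2160.2 CPM in SFSN-Adipo, against 2491, 2269.5 and 2197 CPM in Control. SFSN-Neu and SFSN-Adipo lay below Control and the other 4 groups overlapped it. In the model used throughout, SFSN-Neu was the 1 group past the threshold (-0.28 ± 0.09, adjusted p = 0.0155, edgeR), and it was not without Control 1 or SFSN-Neu 2 (0.105 and 0.087), under total-count scaling (0.503) or by limma on log2 TPM (0.378). The Adam12 calls turned on the processing. With a gene-length trend taken out, Adam12 was called lower in each of the other 5 groups (adjusted p from 0.000114 to 0.0115) and averaged (-0.19 ± 0.03, adjusted p = 2e-05), while under total-count scaling it was called higher in SFSN-TC (0.20 ± 0.08, adjusted p = 0.0498). In SFSN-FB it was called lower without SFSN-EC 1 (0.0455), without SFSN-FB 3 (0.0498) and without SFSN-EC 1 and SFSN-Neu 2 together (0.0177). Adam12 counts were non-whole in all 21 libraries, as they are where reads are shared with another transcript, and so are uncertain.

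Adam33 (gene ID 311425), a protease of mesenchymal cells linked to airway disease in human studies, had 4.18, 10.1 and 10.6 CPM in SFSN-EC, 11.1, 12.3 and 5.11 CPM in SFSN-Ot and 13.9, 13.4 and 8.93 CPM in SFSN-TC. It had 6.17, 13.0 and 9.47 CPM in SFSN-FB, 6.61, 3.65 and 8.39 CPM in SFSN-Neu and 5.32, 12.1 and 10.7 CPM in SFSN-Adipo, against 19.4, 15.4 and 16.1 CPM in Control. All 18 SFSN libraries were below Control, with a wide spread within groups. The averaged log2 fold change was -0.92 ± 0.28 (adjusted p = 0.0114, edgeR), lost without Control 1 (0.0709). The call in SFSN-Neu (-1.45 ± 0.40, adjusted p = 0.00804) held without each single library, and that in SFSN-EC (-1.03 ± 0.39, adjusted p = 0.0495) was lost without any of 14 single libraries.

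Adam22 and Adam23 are known to lack a working protease site and bind LGI proteins at synapses. Adam23 rose in all 6 groups, with 297 to 412 CPM in the SFSN libraries and 263 to 283 CPM in Control, and stood at 0.43 ± 0.08 on the log2 scale (adjusted p = 0.000206, edgeR), and its call in SFSN-Neu was lost without SFSN-Neu 1 or SFSN-Neu 3 (0.0674 and 0.0561). Adam22 was called in none, at 0.20 ± 0.14. Of the germ line genes, Adam1a fell by 0.46 ± 0.18 with the groups averaged (adjusted p = 0.0483), a call that 16 single libraries ended when left out, and its counts were non-whole in all 21 libraries. Adam4 was called against Control in no group. It had 1.35 to 1.78 CPM in SFSN-TC, which overlapped SFSN-Adipo, and 0.756 to 1.13 CPM in Control, and it passed the filter through 3 libraries of SFSN-TC and 2 of SFSN-Adipo, so its call among the SFSN groups is given here with no weight.

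The ADAMTS-like genes split by gene. Their summed level was 67.3 to 98.9 TPM in the SFSN libraries and 104 to 116 TPM in Control, without overlap. Adamtsl3, a secreted matrix protein, had 158 to 246 CPM in the SFSN libraries and 357 to 384 CPM in Control, without overlap, and fell in all 6 groups by between 0.70 ± 0.11 in SFSN-FB and 0.90 ± 0.11 in SFSN-EC on the log2 scale. Adamtsl4, which binds fibrillin-1 and is linked to displaced lenses in people, had 183 to 209 CPM in the SFSN libraries and 269 to 281 CPM in Control, and its averaged log2 fold change was -0.49 ± 0.04 (adjusted p = 2.93e-09, edgeR). Its 6 group values ran from -0.54 ± 0.05 in SFSN-Adipo to -0.46 ± 0.05 in SFSN-TC, a call missed in SFSN-TC by limma on log2 TPM (0.0773 and 0.0757), and none of the 4 tested ADAMTS-like genes passed the test of a difference among the SFSN groups. Adamtsl5 rose by 0.32 ± 0.09 (adjusted p = 0.00664), with 48.6 to 66.1 CPM in the SFSN libraries and 45.5 to 46.6 CPM in Control, without overlap. By group it was called in SFSN-Ot, SFSN-TC, SFSN-FB and SFSN-Adipo, and single libraries ended the call in SFSN-Ot (5 of them, adjusted p up to 0.152), SFSN-FB (SFSN-FB 2 or 3, 0.0981 and 0.0551) and SFSN-Adipo (Control 2, SFSN-Adipo 2 or 3, 0.055, 0.0928 and 0.0977). Adamtsl1 rose by 0.24 ± 0.07 with the groups averaged (adjusted p = 0.00758), a call lost without Control 3 (0.0572). It rose in SFSN-EC, SFSN-FB and SFSN-Ot, the last lost without Control 3 or SFSN-Ot 2 (0.0567 and 0.0517).

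Among the 6 SFSN groups, with no Control library in the comparison, 11 of the 32 tested members differed, as did 34.1% of all genes. They were 3 ADAM genes (Adam4, Adam8 and Adam15) and 8 ADAMTS genes (Adamts1, Adamts2, Adamts4, Adamts6, Adamts7, Adamts8, Adamts9 and Adamts15). By limma on log2 TPM 6 differed, with Adam15, Adamts2, Adamts6, Adamts7 and Adamts9 not called. Each SFSN group was also set against the other 5. By that test 1 of the members stood higher in SFSN-EC and 2 lower (3.17% and 2.84% of all genes), and 6 of the members stood higher in SFSN-Ot and 1 lower (7.90% and 7.10% of all genes). Likewise 1 of the members stood higher in SFSN-TC and 3 lower (7.64% and 7.91% of all genes), and 3 of the members stood higher in SFSN-FB and 2 lower (12.0% and 12.2% of all genes). Finally 2 of the members stood higher in SFSN-Neu and 3 lower (6.70% and 5.48% of all genes), and 3 of the members stood higher in SFSN-Adipo and 1 lower (5.71% and 4.78% of all genes). Single libraries moved some of these counts: SFSN-Ot had 3 members called without SFSN-Ot 2 and 4 without SFSN-Ot 1 or SFSN-Ot 3, where all libraries gave 7. SFSN-Neu, with 5, had 9 without SFSN-EC 1 and 3 without any of 10 others (SFSN-EC 2, SFSN-Ot 1, SFSN-Ot 2, SFSN-TC 2, SFSN-TC 3, SFSN-FB 2, SFSN-FB 3, SFSN-Neu 3, SFSN-Adipo 2 and Control 2). SFSN-Adipo, with 4, had 2 without SFSN-Adipo 1 and 1 without SFSN-Adipo 2. With a trend in gene length taken out of the counts, 9 members were called in SFSN-TC and 10 in SFSN-FB. The difference among the SFSN groups in Adamts6 (adjusted p = 0.0412, edgeR F test) was lost without any of 15 single libraries, that in Adamts7 (0.0499) without any of 18, and that in Adamts9 (0.0313) without any of 6.

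The matrix proteins that ADAMTS proteases cut moved both ways. Of 14 tested, 3 rose and 6 fell with the groups averaged, where 23.5% of all genes rose and 22.4% fell, so the rises were near the share of all genes. Acan, which encodes aggrecan, rose by 3.70 ± 0.13, with 1379 CPM over the SFSN libraries and 105 CPM in Control, and the leucine-rich proteoglycan gene Lum rose by 0.69 ± 0.03. The fibronectin gene Fn1 (-0.62 ± 0.07), the biglycan gene Bgn (-0.35 ± 0.04), the latent TGF-beta binding protein gene Ltbp1 (-0.33 ± 0.03), the collagen gene Col1a1 (-0.26 ± 0.04), the fibrillin gene Fbn1 (-0.26 ± 0.07) and Comp (-1.24 ± 0.17) fell. Of 8 genes for inhibitors, activators and clearance receptors, 2 rose, near the 23.5% of all genes, and 4 fell, where 22.4% of all genes did, among them A2m, which encodes the protease trap alpha-2-macroglobulin (-1.56 ± 0.10), Fbln1, a cofactor of ADAMTS1 (-0.76 ± 0.07), and Hspg2, which encodes perlecan (-0.58 ± 0.11).

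Of 22 tested genes for membrane proteins shed by ADAM10 or ADAM17, 12 rose and 6 fell, where 23.5% of all genes rose and 22.4% fell, so the falls were near that share. The Notch ligand genes Dll1 (4.55 ± 0.25, with 6.52 CPM over the SFSN libraries and 0.252 CPM in Control) and Jag1 (0.92 ± 0.06) rose, as did the macrophage growth factor receptor gene Csf1r (0.71 ± 0.04), itself one of the leukocyte markers. The Csf1r rise was not in every group. SFSN-TC had 72.2 to 76.9 CPM, below the 87.9 to 94.0 CPM of Control, and each other SFSN group lay above Control. The genes of heparin-binding EGF-like growth factor, Hbegf (-0.91 ± 0.04), of its fellow ADAM17 substrate Csf1 (-0.85 ± 0.02) and of the interleukin 6 receptor, Il6r (-0.77 ± 0.16), fell. Of 7 tested genes for EGF receptor ligands and receptors, 2 rose (Ereg, 1.87 ± 0.41, and Erbb2, 0.49 ± 0.16) and 1 fell (Hbegf), both near the 23.5% and 22.4% of all genes. Single Control libraries had 0.126 to 0.378 CPM of Dll1 and 0.126 to 0.63 CPM of Ereg. Dll1 and Ereg thus passed the count filter through the SFSN groups and had to stand higher there. Both are among the rises counted here. RNA levels do not measure cleavage.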

How the data were processed

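RNA of 21 libraries (7 groups of 3) was sequenced from total RNA. Per the submitters' processing notes, the authors used SOAPnuke 2.2.1, HISAT2 2.2.1, Bowtie2 2.4.5, RSEM 1.3.1 and DESeq2 1.34.0 with the rat build Rnor_6.0. The deposited values used are RSEM expected counts, which are estimated and were rounded to whole numbers here, and TPM. Gene lengths for the length trend were taken from the deposited FPKM and counts. The table held 9998 genes, 233 of them without a count, and 26 symbols turned into dates were restored by gene ID; genes outside it, the TIMP genes among them, were not analysed here. The authors' normalized counts (21 columns) were not used.

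Counts were scaled by TMM, filtered by filterByExpr and tested with edgeR 4.0.16 (R 4.3.3) in 1 quasi-likelihood model over all groups (14 residual degrees of freedom), Benjamini-Hochberg adjusted over 6659 genes; the script was checked on simulated counts. Library totals of 8113600 to 8934239 counts set the precision. Alternatives were RLE and total-count scaling, no filter, DESeq2 1.42.0, limma 3.58.1 on log2(TPM + 0.1) and log2(TPM + 1), only the 2 groups compared, each library left out, a replicate block and a gene-length trend. Leaving out SFSN-EC 1 and SFSN-Neu 2 together was added after seeing the data. The members and gene lists were chosen with earlier results of these data known. Values per library are given for members of at least 5 CPM in some group called with a log2 fold change of at least 1 against Control, or 0.7 against the other SFSN groups, and for the 3 of highest TPM; Adamts8 was added after its values were seen. Other genes are the called ones of largest change in each list and 4 markers.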

Additional observations from a re-analysis of the deposited data

Results flagged for a closer look

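The effect against Control differed between the 6 SFSN groups, by edgeR's F test over those groups alone, for 11 members. The adjusted p was 5.57e-12 for Adam8, 4.63e-10 for Adamts1 and 1.16e-05 for Adamts8, whose group values lay on both sides of Control. It was 0.000999 for Adamts4, 0.00336 for Adamts15 and 0.0313 for Adamts9, which rose in all 6 groups by different amounts. It was 0.00428 for Adam15, 0.00433 for Adam4, 0.00526 for Adamts2, 0.0412 for Adamts6 and 0.0499 for Adamts7. By limma on log2 TPM the difference was not called for Adam15 (0.55), Adamts2 (0.37), Adamts6 (0.16), Adamts7 (0.38) and Adamts9 (0.2 and 0.185), with the length trend taken out not for Adamts2 (0.442), and with a replicate block not for Adamts6 (0.0519), Adamts7 (0.0737) and Adamts9 (0.055). Adam4 passed the count filter through SFSN-TC and SFSN-Adipo, where it was high. Of all genes tested, 34.1% differed among these groups.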

How the results depend on the processing

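Of 122 called member values against Control, 91 kept their call under all 31 alternatives. Against the other 5 SFSN groups, the members called changed with a gene-length trend taken out to 5 members for SFSN-EC, 9 for SFSN-TC, 10 for SFSN-FB and 8 for SFSN-Neu, and by limma, at either pseudocount, to 2 in SFSN-Ot, SFSN-TC and SFSN-Neu. By limma 6 members differed among the SFSN groups and 1 fell in all 6, and under total-count scaling 11 rose in all 6. With only the 2 groups compared, 1360 of all genes were called in SFSN-EC, against 2215 in the full model. The replicate numbers did not pair the libraries (r from -0.39 to 0.46, over 0.1 in 17 of 63 pairs), and with a replicate block 3 members were called in SFSN-Neu against the other groups. Leaving out 1 library gave 3 to 8 members in SFSN-Ot, 3 to 9 in SFSN-Neu and 1 to 4 in SFSN-Adipo against the other groups, where all libraries gave 7, 5 and 4. The cause of these changes was not tested.

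Total-count scaling and limma on log2 TPM moved the median of all genes by more than 0.1, in SFSN-Adipo to 0.22 and 0.23. Called values that changed sign under total-count scaling were those of Adamts2, to 0.053 in SFSN-EC and 0.093 in SFSN-Neu. Adam12 stood under total-count scaling at 0.040 in SFSN-EC, 0.11 in SFSN-Ot, 0.078 in SFSN-Adipo and 0.059 with the groups averaged. By limma it stood at 0.094 in SFSN-Ot (both pseudocounts), 0.079 in SFSN-Adipo and 0.022 averaged. Without 1 library it ran from -0.089 to 0.0029 in SFSN-Ot (Control 1 left out gave the positive value) and from -0.017 (without Control 3) to 0.070 in SFSN-TC, with -0.0046 without SFSN-TC 3 and -0.15 with the length trend taken out, where it was called (adjusted p = 0.00323, edgeR). Adam12 was also called at 0.20 in SFSN-TC under total-count scaling (0.0498) and at -0.19 averaged with the length trend taken out (2e-05). Adam8 in SFSN-Adipo against the other groups was 0.0072 by limma on log2(TPM + 0.1), and Adamts1 in SFSN-Ot was -0.033 with the length trend taken out. Members of few counts, such as Adamts3 and Adamts19, are limited by depth.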

Other observations

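Genes of interleukin 1 and interleukin 6 signalling, cytokines known to induce aggrecanases in cartilage cells, moved both ways. Of 17 tested, 8 rose and 5 fell with the SFSN groups averaged, where 23.5% of all genes rose and 22.4% fell. The interleukin 1 genes Il1a (1.32 ± 0.38) and Il1b (1.03 ± 0.13, with 10.3 CPM over the SFSN libraries and 4.91 CPM in Control) and the leukemia inhibitory factor receptor gene Lifr (0.96 ± 0.34) rose. Il1a was low, and SFSN-EC, SFSN-TC and SFSN-Adipo overlapped Control (0.630 to 1.64 CPM). Its mean was 0.932 CPM in SFSN-TC and 1.09 CPM in Control. Group means of Irak3 ran from 31.7 CPM in SFSN-TC to 37.6 CPM in SFSN-Ot, against 21.5 CPM in Control. Those of Il1rn ran from 29.1 CPM in SFSN-Ot to 45.1 CPM in SFSN-Adipo, against 24.3 CPM in Control. The receptor genes Il1rl1 (-0.67 ± 0.03) and Il1rap (-0.62 ± 0.14) and the cytokine gene Il11 (-0.74 ± 0.17) fell. Chondrocyte markers summed to 104 to 204 TPM in the SFSN libraries and 13.3 to 16.8 TPM in Control. Of 5 tested 2 rose and 2 fell, Acan standing at 1379 CPM over the SFSN libraries and 105 CPM in Control, while the cartilage collagen gene Col2a1 stood at 0.577 CPM over the SFSN libraries and 1.302 CPM in Control. Endothelial markers summed to 14.5 to 18.8 TPM in the SFSN libraries and 22.9 to 25.1 TPM in Control, with 0 of 5 tested rising and 3 falling. Of 3 tested neuron genes 0 rose and 2 fell, and of 7 erythroid genes none was tested. Of other marker lists, 8 of 8 adipocyte genes rose, 4 of 8 osteoblast genes rose and 2 fell, and 1 of 6 smooth muscle genes rose and 5 fell. Over all genes 23.5% rose and 22.4% fell with the groups averaged, so the osteoblast falls and the smooth muscle rise were near those shares. The 1 epithelial gene tested was not called.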
